A study of Oryza longistaminata with 9 samples.

Results

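The Sugar_tr family of O. longistaminata, an African wild rice with long anthers, was described in anther RNA at an early and a later step of pollen development. Its 103 members, of 46327 gene models in all, were chosen by the family column of the deposited gene table, and no count entered that choice. The family itself was picked with results of this stage comparison known, so its counts and medians describe it and are not tested as a list. RNA of isolated anthers was compared between 4-mm spikelets (Ls-4mm, stage 4, when primary sporogenous cells arise) and 6-mm spikelets (Ls-6mm, stage 6, when microspore mother cells form and the tapetum has developed), with 3 libraries per stage. Neither the labels nor the methods name a treatment. Whether replicates were different plants is not stated, so a p-value here sets the stage difference against the spread of 3 libraries that may be technical.

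Sugar_tr is the domain family "Sugar (and other) transporter" (PF00083) of the major facilitator superfamily, proteins with many membrane-spanning helices. In plants its best known members are symporters that carry a hexose into a cell together with a proton, and others carry sugars across the membranes of vacuoles or plastids, or carry polyols, inositol, organic cations or phosphate. Developing pollen has no open cytoplasmic connection to the anther wall late in its development, so sugar unloaded from the phloem passes through the cell wall space, where it can be imported as sucrose or, after cleavage by cell wall invertase, as hexose. The proton gradient for this import is made by plasma membrane H+-ATPases, and SWEET proteins let sugars move down their own gradient.

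The annotation did not bear out the narrower label of monosaccharide transporters. Of the 103 members, 60 had an empty description, 42 had only the text of the domain, and 1 carried a gene name. The named member was PHT1-4 (BGIOSGA015518), described as a probable inorganic phosphate transporter and therefore no sugar carrier by name. The members are called Sugar_tr genes below, and what the other 102 carry is not given in the table. Positions are printed as the table lists them, and which assembly they belong to is not settled by the sources used here, because the study names a sequence of O. longistaminata while the identifiers carry the prefix of O. sativa subsp. indica. There were 97 members on chromosomes 1 to 12 and 6 on unplaced scaffolds. The coding length had a median of 1548 bases and ran from 159 to 2292 bases.

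Most of the family was detected, and the summed level was higher in Ls-6mm. A count in at least 1 library was found for 87 members and in every library for 52, whereas 16 were at 0 in all 6 libraries. Levels within a stage are compared as FPKM, which is scaled by gene length, and levels between stages as CPM, raw counts scaled by library sizes that were corrected with TMM factors. The CPM summed over all members came to 1170, 1233 and 1229 at the earlier stage (Ls-4mm) and to 2589, 2562 and 2601 at the later (Ls-6mm). The stages did not overlap, and the ratio of the means (1211 ± 35.1 and 2584 ± 19.8, SD, n = 3) was 2.13. It was 2.09 in summed FPKM (741 ± 17 and 1548 ± 11.5, SD, n = 3) and 1.94 when CPM was scaled by library size only. Since anthers are a mixture of tissues, more RNA per cell and more cells of an expressing type cannot be told apart in these values.

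Of the 54 members that passed the filter on low counts, 46 (85.2%) rose from Ls-4mm to Ls-6mm, 6 (11.1%) fell and 2 missed the threshold of the test (edgeR quasi-likelihood fit over all genes, adjusted p under 0.05, any fold change). Among all 23691 genes tested, 42.0% were higher and 38.6% lower. With the stricter threshold of adjusted p at most 0.001 and at least a 2-fold change, 32 members (59.3%) were higher and 2 (3.7%) lower, beside 23.6% and 13.3% of all genes. In CPM, every Ls-6mm library lay above every Ls-4mm library for 45 tested members (83.3%; 42.7% of all genes), the reverse held for 6 (11.1%; 39.0% of all genes), and the stages overlapped for 3. The median log2 fold change, Ls-6mm over Ls-4mm, was 1.60 over the tested members and 0.04 over all genes tested.

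**Figure D1:**
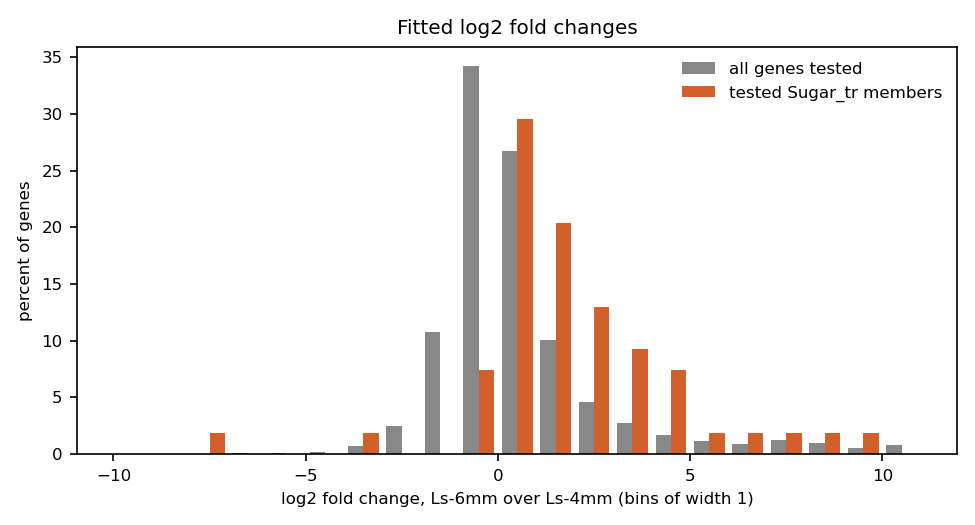
Share of genes (y axis, percent) in bins of log2 fold change of width 1 (x axis, Ls-6mm over Ls-4mm), for all 23691 genes tested (grey) and the 54 tested Sugar_tr members (orange), with more extreme values counted in the outermost bins. The members lie mostly to the right of 0, where 16 fall between 0 and 1 and 11 between 1 and 2, while 4 fall between -1 and 0.

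Part of these counts can follow from the filter. It favours, but does not force, a difference in genes over the count cutoff in every library of only 1 stage. Of the tested members, 13 were over the count cutoff in every library of Ls-6mm but not of Ls-4mm, and all 13 were higher; 2 were over it in every library of Ls-4mm only. The remaining 39 were over it in every library of both stages, and 33 of them were higher, 4 lower and 2 did not pass. For the 19911 genes of the whole table over the cutoff in every library, 37.4% were higher and 42.4% lower. The median log2 fold change was -0.07 over these genes and 0.80 over the 39 members. The 33 members that were detected but not tested had a median of 14 and at most 49 counts over the 6 libraries together. Their pooled counts came to 130 in Ls-4mm, as against 440 in Ls-6mm, and the mean CPM was larger in Ls-6mm for 26 of them and larger in Ls-4mm for 7. The same split over the untested genes of the whole table is not given here, so these values are a description only.

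The size of the rise differed widely within the family. Of the 46 higher members, 14 had a log2 fold change under 1, 11 between 1 and 2, 7 between 2 and 3, and 14 of 3 or more. At least 4-fold higher were 21 of them (45.7%), beside 34.7% of all higher genes. The median log2 fold change was 1.88 over the higher members and 1.26 over all higher genes. A split by the Ls-4mm level, which is itself one side of the fold change, is given as a description only. All 16 tested members under 1 CPM in Ls-4mm were higher (median log2 fold change 3.67). However, 13 of them were over the cutoff in every library of Ls-6mm but not of Ls-4mm, which favours a rise. In the whole table, 79.5% of the 3503 tested genes at that level were higher too, with a median of 3.22. Of the 16 members from 1 to 10 CPM in Ls-4mm, 13 were higher and 3 lower, with a median of 1.60. Of all 7365 genes of that level, 39.3% were higher and 31.6% lower, with a median of 0.08. Of the 22 members of at least 10 CPM, 17 were higher, 3 lower and 2 did not pass, and the median was 0.27. Of all 12823 genes of that level, 33.4% were higher and 52.1% lower, with a median of -0.19. When members were split by their mean over all 6 libraries instead, the 12 of at least 50 CPM had 10 higher and 1 lower and a median of 1.08. Of the 5315 genes at that level in the whole table, 41.7% were higher and 48.2% lower, with a median of -0.07.

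**Figure D2:**
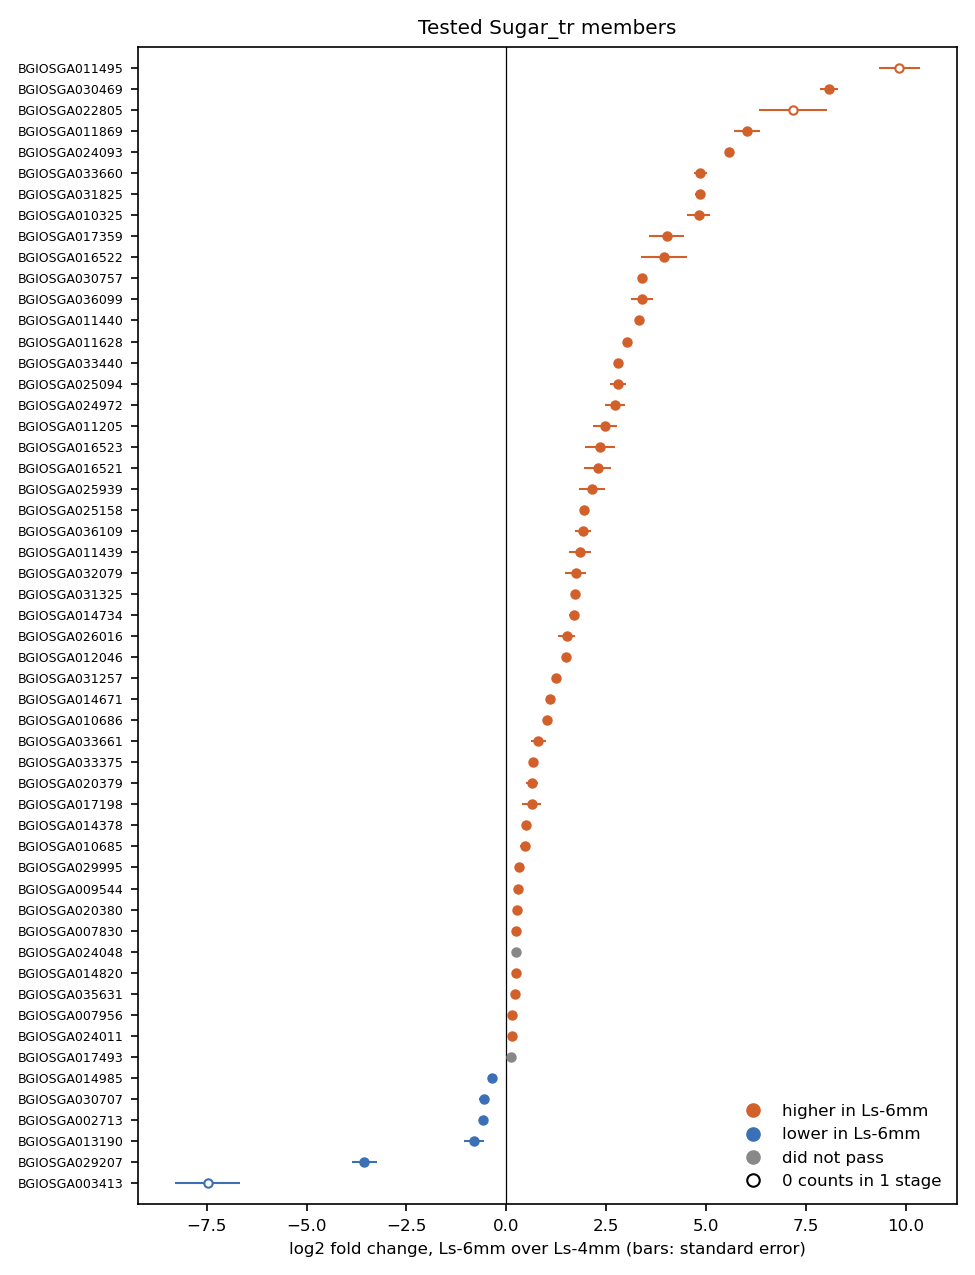
Fitted log2 fold change (x axis, Ls-6mm over Ls-4mm, bars are standard errors) of each of the 54 tested Sugar_tr members (rows, ordered by value). Orange points were higher in Ls-6mm (46), blue points lower (6) and grey points did not pass the test (2); open points mark genes with 0 counts in 1 stage, whose fitted value is no bound.

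The Sugar_tr gene with the highest level in both stages was BGIOSGA012046 (chromosome 3, 5556914 to 5558566). Its CPM was 178, 212 and 202 in Ls-4mm, as against 563, 551 and 559 in Ls-6mm, so that the lowest Ls-6mm library was far above the highest Ls-4mm library. The log2 fold change was 1.5 ± 0.05 (SE, adjusted p = 2.61e-14). It held 16.9% of the summed FPKM of the family in Ls-4mm and 22.2% in Ls-6mm. It also accounted for 26.2% of the difference in summed CPM between the stages, and without it the ratio of the summed CPM was 2.0.

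BGIOSGA011440 (chromosome 3, 3262177 to 3263760) and BGIOSGA024093 (chromosome 7, 20409887 to 20412194) moved up into the 4 highest of the family. The CPM of BGIOSGA011440 was 16.7, 19.5 and 17.1 in Ls-4mm, as against 185, 172 and 179 in Ls-6mm. This is a log2 fold change of 3.33 ± 0.06 (SE, adjusted p = 4.52e-18), and its rank by FPKM among the 103 members went from 17 to 2. BGIOSGA024093 was at 2.41, 3.17 and 4.31 CPM in Ls-4mm and at 155, 156 and 167 CPM in Ls-6mm. Its log2 fold change was 5.58 ± 0.09 (SE, adjusted p = 2.85e-18), and its rank went from 30 to 4. Together with BGIOSGA012046, both genes made up 49.3% of the difference in summed CPM.

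BGIOSGA033440, BGIOSGA030757 and BGIOSGA031325 entered or moved up within the 10 highest of Ls-6mm. BGIOSGA033440 (chromosome 10, 21151604 to 21154719) had 14.4, 15.1 and 14.7 CPM in Ls-4mm, as against 102, 105 and 101 CPM in Ls-6mm, a log2 fold change of 2.80 ± 0.05 (SE). BGIOSGA030757 (chromosome 9, 13404292 to 13410082) had 8.52, 9.46 and 8.98 CPM against 97.0, 92.0 and 95.9 CPM, a log2 fold change of 3.40 ± 0.06 (SE). Their ranks by FPKM went from 20 to 7 and from 24 to 9, and neither gene had overlapping stages. BGIOSGA031325 (chromosome 10, 22163385 to 22167324) had 32.1, 28.9 and 31.5 CPM in Ls-4mm, as against 94.2, 103 and 106 CPM in Ls-6mm, a log2 fold change of 1.71 ± 0.06 (SE), and went from rank 10 to 6. The adjusted p of these 3 genes ran from 1.17e-17 to 3.9e-14.

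Some other members that were high in Ls-4mm rose by under 2-fold, which for BGIOSGA033375 was still 6.47% of the difference in summed CPM. BGIOSGA033375 (chromosome 10, 20041305 to 20044789) had 151, 163 and 146 CPM in Ls-4mm, as against 243, 240 and 245 CPM in Ls-6mm, a log2 fold change of 0.66 ± 0.04 (SE, adjusted p = 2.41e-10), and kept rank 3. BGIOSGA007830 had a mean of 112 ± 0.577 CPM in Ls-4mm, as against 133 ± 2.26 CPM in Ls-6mm (SD, n = 3; log2 fold change 0.25 ± 0.04, SE, adjusted p = 1.59e-05). BGIOSGA009544 had means of 41.3 ± 2.5 and 50.2 ± 3.43 CPM (SD, n = 3; log2 fold change 0.28 ± 0.06, SE, adjusted p = 0.000691). These 3 genes passed the test with stages that did not overlap, but under a 2-fold change.

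The genes nearest to no change were BGIOSGA017493, BGIOSGA024011 and BGIOSGA007956, each among the 7 highest of the family by FPKM in Ls-4mm. BGIOSGA017493 had 74.9, 82.4 and 87.3 CPM in Ls-4mm, as against 89.8, 88.9 and 85.1 CPM in Ls-6mm, so the stages overlapped. Its log2 fold change of 0.11 ± 0.05 (SE) did not pass (adjusted p = 0.0669), was 0.16 and passed without Ls-4mm replicate 3 (adjusted p = 0.016), and turned to -0.03 when libraries were scaled by size only. BGIOSGA024011 had 55.0, 57.9 and 58.8 CPM against 63.3, 63.0 and 63.6 CPM (log2 fold change 0.14 ± 0.05, SE, adjusted p = 0.0107). BGIOSGA007956 had 99.8, 101 and 107 CPM against 110, 114 and 116 CPM (0.15 ± 0.04, SE, adjusted p = 0.0044). Neither of these last genes passed with library size only, where both were at 0.01. BGIOSGA024048, named after its values were seen, was the other tested member that did not pass, with means of 21.2 ± 3.97 and 25.0 ± 1.76 CPM (SD, n = 3; adjusted p = 0.053; 0.00178 without Ls-4mm replicate 3).

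**Figure D3:**
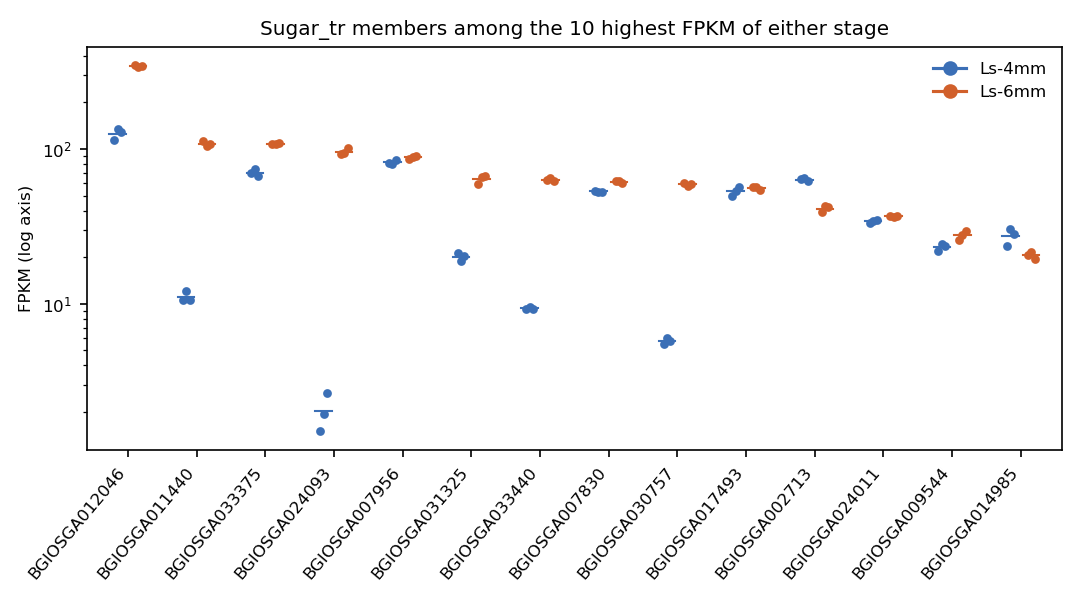
FPKM (y axis, log axis) in each of the 3 Ls-4mm (blue) and 3 Ls-6mm (orange) libraries for the Sugar_tr members among the 10 highest of either stage, with a short line at the mean. BGIOSGA012046 leads both stages, BGIOSGA011440, BGIOSGA024093, BGIOSGA033440 and BGIOSGA030757 sit far lower in Ls-4mm than in Ls-6mm, and BGIOSGA002713 and BGIOSGA014985 sit lower in Ls-6mm.

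A few genes held most of the family's RNA in both stages. The 10 highest members by FPKM held 74.6% of the summed FPKM in Ls-4mm and 67.7% in Ls-6mm, and 6 members were among the 10 highest of both stages. In Ls-4mm the order by FPKM began with BGIOSGA012046, BGIOSGA007956, BGIOSGA033375 and BGIOSGA002713, whose ranges over libraries lay apart, and then BGIOSGA017493 and BGIOSGA007830, whose ranges of 49.5 to 57.0 and 52.8 to 53.7 FPKM overlapped. In Ls-6mm the order began with BGIOSGA012046 at 340 to 347 FPKM, followed by BGIOSGA011440 at 104 to 112 FPKM and BGIOSGA033375 at 107 to 109 FPKM, which did not differ beyond their spread. BGIOSGA031325 and BGIOSGA033440 overlapped as well, and so did BGIOSGA007830 and BGIOSGA030757. A mean of at least 1 FPKM was found for 33 members in Ls-4mm and 51 in Ls-6mm. It was at least 10 FPKM for 18 and 27, and at least 50 FPKM for 6 and 10. These counts describe each stage by itself, and the share of all genes at such levels is not given here. Members of at least 10 CPM varied between libraries of a stage by a median coefficient of variation of 6.41% in Ls-4mm and 4.3% in Ls-6mm, against 4.85% and 4.25% for all genes of at least 10 CPM.

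Several members were at or near 0 in Ls-4mm and clearly detected in Ls-6mm. BGIOSGA030469 (chromosome 9, 6733044 to 6734408) had 2, 4 and 0 counts in Ls-4mm and 630, 679 and 523 counts in Ls-6mm, or 34.4 ± 2.88 CPM (SD, n = 3), with a log2 fold change of 8.07 ± 0.23 (SE, adjusted p = 3.42e-15). With so few Ls-4mm counts the fold depended on single libraries: the log2 fold change was 8.96 without Ls-4mm replicate 2 and 7.49 without Ls-4mm replicate 3. Its rank by FPKM went from 57 to 17. BGIOSGA011495 (chromosome 3, 2365110 to 2366690) had 0 counts in every Ls-4mm library and 110, 122 and 123 counts in Ls-6mm. Against a floor of 3 counts over the 3 Ls-4mm libraries, which is 0.0605 CPM, it was at least 111-fold higher in Ls-6mm (adjusted p = 9.99e-11). BGIOSGA022805 (chromosome 6, 13383129 to 13385556) had 0 counts in every Ls-4mm library and 16, 22 and 18 counts in Ls-6mm, which is at least 17.3-fold higher (adjusted p = 1.73e-06). The floors cover only counting error, and only in the stage at 0, not in the other stage.

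BGIOSGA011869 (chromosome 3, 3245324 to 3248276) and BGIOSGA033660 (chromosome 11, 20331020 to 20332596) were the other members among the 6 largest rises that were under 1 CPM in Ls-4mm. The counts of BGIOSGA011869 were 2, 1 and 2 in Ls-4mm, as against 107, 163 and 107 in Ls-6mm, a log2 fold change of 6.02 ± 0.32 (SE, adjusted p = 1.35e-11). BGIOSGA033660 had 15, 11 and 10 counts against 375, 398 and 356 counts, a log2 fold change of 4.86 ± 0.17 (SE, adjusted p = 3.94e-14). In all, 15 members had counts in Ls-6mm only, of which 7 had at least 10 counts over the 3 libraries and 2 were tested, and 2 members had counts in Ls-4mm only. The Ls-6mm libraries held more counts, and the share of all genes with counts in 1 stage only is not given here. The named phosphate transporter PHT1-4 (chromosome 4, 6052851 to 6054467) belonged to the 15, with 5, 7 and 7 counts in Ls-6mm. Its Ls-6mm mean was 5.92-fold above the same floor, and it was too low to be tested.

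Of the 6 lower members, some were low genes that fell to or near 0, while the others, at low or high levels, fell by under 2-fold. BGIOSGA003413 (chromosome 1, 14038315 to 14041504) had 23, 19 and 22 counts in Ls-4mm and 0 in every Ls-6mm library, at least 23.1-fold lower against a floor of 3 counts over the Ls-6mm libraries, or 0.0563 CPM (adjusted p = 6.15e-07). BGIOSGA029207 (chromosome 8, 30167954 to 30169558) had 64, 72 and 88 counts against 10, 8 and 2 counts, and fell by 3.56 ± 0.31 on the log2 scale (SE, adjusted p = 1.53e-08). These were the members that also passed the stricter threshold as lower. BGIOSGA002713 (chromosome 1, 2198533 to 2202870), at rank 4 in the family by FPKM in Ls-4mm, had 94.6, 97.5 and 93.4 CPM in Ls-4mm, as against 60.0, 65.5 and 64.6 CPM in Ls-6mm. It fell by 0.58 ± 0.05 on the log2 scale (SE, adjusted p = 3.7e-09) and went to rank 12.

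The other falls were smaller or rested on fewer counts. BGIOSGA014985 (chromosome 4, 20831738 to 20836588) had 36.6, 47.8 and 44.0 CPM against 33.5, 34.6 and 31.4 CPM, which did not overlap, and a log2 fold change of -0.37 ± 0.08 (SE, adjusted p = 0.000565). BGIOSGA030707 had means of 16.1 ± 2.09 and 10.8 ± 0.464 CPM (SD, n = 3; log2 fold change -0.57 ± 0.11, SE, adjusted p = 0.000109). BGIOSGA013190 had 40, 42 and 31 counts against 22, 22 and 25 counts (log2 fold change -0.81 ± 0.25, SE, adjusted p = 0.007). Summed over the family, the members with a lower mean lost 54.1 CPM, whereas those with a higher mean gained 1427 CPM.

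The following 4 higher members, named after their values were seen, lost their call when 1 library was left out. BGIOSGA029995 (log2 fold change 0.32) had an adjusted p of 0.136 without Ls-6mm replicate 1. BGIOSGA020380 (0.27) had 0.0941 without Ls-4mm replicate 2, 0.0514 without Ls-6mm replicate 1 and 0.0816 without Ls-6mm replicate 2. BGIOSGA035631 (0.21) had 0.136 and 0.0637 without Ls-4mm replicates 2 and 3, and 0.166 and 0.0546 without Ls-6mm replicates 2 and 3. BGIOSGA017198 (0.63, at 1.2 and 1.87 CPM) had 0.118 and 0.0527 without Ls-4mm replicates 1 and 2, and 0.0865 and 0.0567 without Ls-6mm replicates 2 and 3. No call changed direction in any of the alternatives tried. With library size only, 39 members were higher and 6 lower, beside 37.8% and 44% of all genes tested. The median log2 fold change of all genes moved by -0.14 in that setting.

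Many members lay next to each other on a chromosome. With a limit of 50 kb to the next member, 48 members fell into 18 clusters of 2 to 7 genes. Reads that could fit several close copies may have been lost or split by the counting, so low values of neighbours are uncertain. On chromosome 3 (3245324 to 3271864), all 3 genes of a cluster were higher, but at very different levels: BGIOSGA011440 reached 179 CPM, BGIOSGA011869 reached 7.0 CPM, and BGIOSGA011439 went from 0.643 to 2.31 CPM (log2 fold change 1.84 ± 0.27, SE). On chromosome 11 (20318831 to 20341259), BGIOSGA033660 went from 0.734 to 21.3 CPM, and its neighbour BGIOSGA033661 from 2.13 to 3.69 CPM (log2 fold change 0.80 ± 0.19, SE), while the other 2 members of that cluster were not tested. The differences between neighbours were not tested.

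The largest cluster, on chromosome 4 (20805509 to 20884487), held 7 members that moved in both directions. BGIOSGA014985, by far its highest member in both stages, was lower in Ls-6mm. Its neighbours BGIOSGA016521, BGIOSGA016522 and BGIOSGA016523, on the opposite strand, were higher, with means of 0.344, 0.0986 and 0.338 CPM in Ls-4mm and of 1.71, 1.69 and 1.78 CPM in Ls-6mm. The log2 fold change of BGIOSGA016522 was 3.95, and 5.45 without Ls-4mm replicate 2. The other 3 were not tested. On chromosome 7 (21651365 to 21666426), BGIOSGA026016 went from 1.3 to 3.69 CPM (log2 fold change 1.51 ± 0.22, SE). In the same cluster BGIOSGA024011 overlapped the member BGIOSGA026018 over 1476 bases on opposite strands, the latter at 0 in every library; whether the counting used strand is not stated in those sources, so reads of the pair may not have been told apart. Cluster members outside the naming rule were named after their values were seen.

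**Figure D4:**
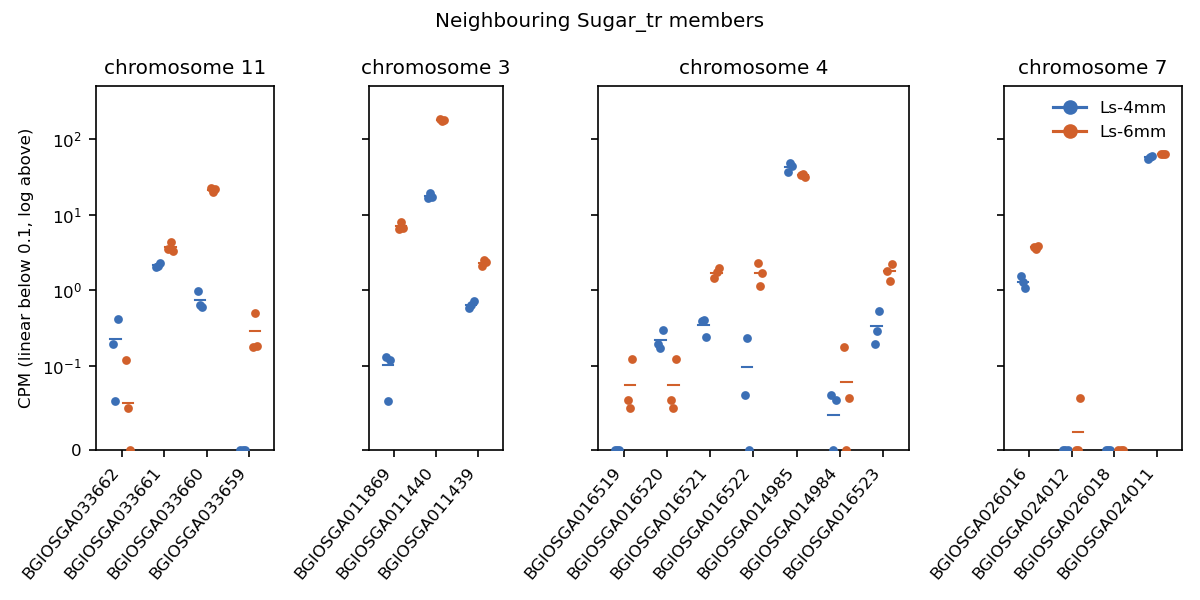
CPM (y axis, linear below 0.1 and log above) in each Ls-4mm (blue) and Ls-6mm (orange) library for the members of the clusters with at least 3 members and at least 2 calls, in chromosome order, with a short line at the mean. On chromosome 4, BGIOSGA014985 is lower in Ls-6mm and far above its neighbours, of which 3 are higher in Ls-6mm; on chromosomes 3, 7 and 11 the tested members are all higher.

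Members that were not detected were often short models. Of the 17 members with a coding length under 1200 bases, 9 were at 0 in all libraries and 1 was tested. Of the 86 longer members, 7 were at 0. The median coding length was 1062 bases for the 16 members at 0 and 1558 bases for the tested members. Of the 6 members on unplaced scaffolds, 5 were at 0.

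Other genes of sugar transport and use were read from the same fit, by words in their names, descriptions or families. Genes without such words were missed, so a list need not hold its whole family. Their counts stand beside the 42.0% of all genes tested that were higher and the 38.6% that were lower. All 10 tested genes of the SWEET family were higher in Ls-6mm (median log2 fold change 4.47), and the CPM summed over its 16 genes was 170 ± 9.23 in Ls-4mm, as against 565 ± 13.8 in Ls-6mm (SD, n = 3). Of the 10, 5 were over the cutoff in every library of Ls-6mm but not of Ls-4mm, which favours a rise. The other 5 had a median of 1.73. The highest gene of the family, BGIOSGA004923, had 82.0 ± 3.67 CPM in Ls-4mm, as against 272 ± 7.3 CPM in Ls-6mm (SD, n = 3), a log2 fold change of 1.73 ± 0.04 (SE), and SWEET14 (BGIOSGA033930) had 0 counts in every Ls-4mm library, reached 18.1 ± 2.09 CPM (SD, n = 3) in Ls-6mm and was at least 299-fold higher. The 3 genes found by words for sucrose transporters, which import sucrose with a proton, were all higher. Of these, 1 was over the cutoff in Ls-6mm only. They included SUT4 (BGIOSGA009335, 33.8 to 59.5 CPM) and SUT5 (BGIOSGA006190, 0.924 to 6.97 CPM). Of 5 invertases, 3 were tested and higher, 1 of them over the cutoff in Ls-6mm only. CIN2 (BGIOSGA016364) is a cell wall enzyme that splits sucrose into hexoses. It had 18.3 ± 0.439 CPM in Ls-4mm, as against 80.7 ± 4.91 CPM in Ls-6mm (SD, n = 3), a log2 fold change of 2.14 ± 0.06 (SE, adjusted p = 4.56e-15). BGIOSGA015083, an alkaline and neutral invertase, went from 5 counts in all in Ls-4mm, or 0.0966 CPM, to 7.56 CPM, and its log2 fold change of 6.13 was 7.63 without Ls-4mm replicate 2.

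Of 10 tested plasma membrane H+-ATPases, 9 were higher and 1 did not pass, the median log2 fold change being 2.36. Of the 9, 5 were over the cutoff in every library of Ls-6mm but not of Ls-4mm, which favours a rise. The 5 genes over the cutoff in both stages had a median of 0.78, with 4 higher. BGIOSGA017272, the highest, had 289 ± 5.96 CPM in Ls-4mm, as against 791 ± 7.91 CPM in Ls-6mm (SD, n = 3), a log2 fold change of 1.45 ± 0.03 (SE), and BGIOSGA013360 went from 5.66 to 83.8 CPM. Genes of sugar use inside the cell did not move as one. Of 5 tested sucrose synthases, which cleave sucrose in the cytosol, 3 were higher, 1 lower and 1 did not pass, and the highest, BGIOSGA010570, went from 2151 to 2565 CPM (log2 fold change 0.25 ± 0.03, SE), whereas BGIOSGA026140 went from 1.10 to 19.0 CPM. Of 17 tested fructokinases and other pfkB kinases, 6 were higher, 10 lower and 1 did not pass, the median log2 fold change being -0.53; the highest, BGIOSGA027875, went from 375 to 430 CPM and BGIOSGA004813 from 12.5 to 4.99 CPM. No gene matched the words for hexokinases. That the share of higher calls differs between these lists was not tested.

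**Figure D5:**
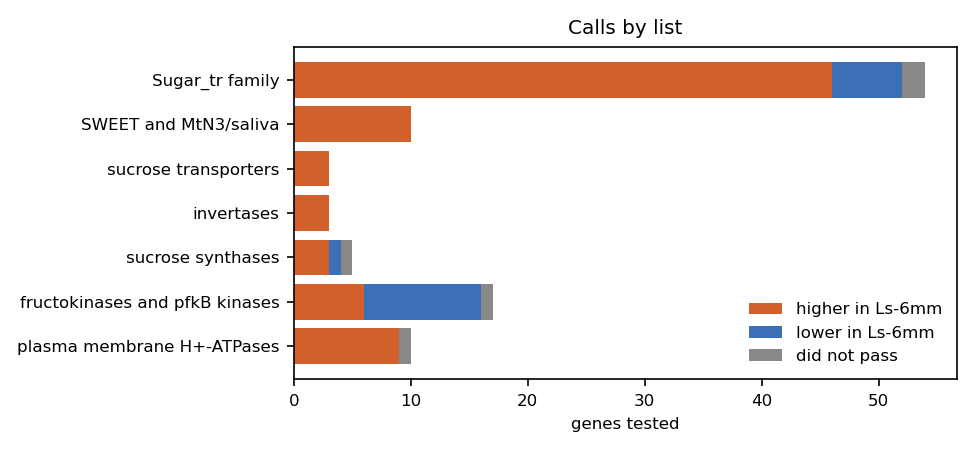
Number of genes tested (x axis) in the Sugar_tr family and in each list of other sugar genes (rows), split into higher in Ls-6mm (orange), lower (blue) and not passed (grey). SWEET genes (10), sucrose transporters (3) and invertases (3) hold higher genes only, while 10 of 17 fructokinases and pfkB kinases were lower.

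Markers of the tissues an anther sample could hold did not all move with the family, and their part in its rise was not tested. Their counts too stand beside 42.0% higher and 38.6% lower among all genes tested. Of 24 tested genes of the tapetum and anther wall list, 19 were higher and 2 lower, and its summed CPM was 743 to 876 in Ls-4mm, as against 1887 to 1962 in Ls-6mm; 19 of its 42 genes were at 0 in Ls-4mm, as against 10 in Ls-6mm. Of the 24, 13 passed the filter through Ls-6mm only, all higher, and of the 11 over the cutoff in both stages 6 were higher and 2 lower (median log2 fold change 0.12). For green tissue, 39 of 44 tested genes were higher, and 36 of the 39 over the cutoff in both stages (2224 to 2564 and 5636 to 5848 summed CPM; 1 and 3 of 49 genes at 0). The list for late pollen, whose enzyme families are also used by other tissues, had 34 of 43 tested genes higher, and 25 of the 33 over the cutoff in both stages (1770 to 1952 and 15125 to 15575 summed CPM; 36 and 25 of 91 genes at 0). Of 6 tested meiotic genes, 1 was higher and 3 lower (186 to 196 and 245 to 248 summed CPM; 3 of 9 genes at 0 in each stage). Genes of each list were detected in both stages.

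The Ls-4mm libraries held 14509449 to 16684146 counts each, and the Ls-6mm libraries 17076800 to 21232663. Libraries of a stage differed by more than sampling noise, with a chi-square per degree of freedom of 2.06 to 3.49, so no library was a copy of another. The TMM factors were 1.039 to 1.060 in Ls-4mm, as against 0.951 to 0.956 in Ls-6mm.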

How the data were processed

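RNA-seq of anthers was analysed for Ls-4mm and Ls-6mm, with 3 libraries each; Ls-8.5mm was not analysed here, and 36 other columns with values of single samples were left out. Libraries were placed in stages by their titles and age labels. Poly(A) RNA was captured by the authors on oligo(dT) beads and the reads were aligned with HISAT2 2.0.5. FeatureCounts 1.5.0-p3, DESeq2 1.16.1 and edgeR 3.18.1 are also named in the notes of the submitters. The deposited counts are raw whole numbers of reads per gene. The deposited FPKM values were scaled by the authors by coding length and by a library size that was 0.993 to 1.066 times the total count. Columns with the authors' own fold changes and p-values were not used.

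Counts were fitted over the whole table in R 4.3.3 with edgeR 4.0.16 (filterByExpr, minimum count 10 and minimum total count 15; TMM; quasi-likelihood test; stage as the only term; Benjamini-Hochberg adjustment over 23691 genes; biological coefficient of variation 4.73%). The fit was also run on simulated counts in which far fewer genes changed than here. That run does not check the TMM scaling or the error rates in these data. CPM used TMM-scaled library sizes, and errors of log2 fold changes are the fold change divided by the square root of the F statistic. Stages with 0 counts were given a floor of 3 counts over 3 libraries. Replicate numbers were not used to pair the libraries in this fit.

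Named members were the 10 with the highest mean CPM of each stage, the 6 largest rises and falls, those at 0 in 1 stage (all these of at least 1 CPM in a stage), the 3 of at least 10 CPM nearest to no change, and those with a gene name; of each other list, the highest gene and the largest change were named. The members and lists were chosen with earlier results of these data known. Alternatives were DESeq2 1.42.0, RLE size factors, library size only, other filters, limma 3.58.1 on log2(FPKM + 1) and log2(FPKM + 0.1), a replicate block, a stricter threshold, other cluster distances (20 and 200 kb) and each library left out.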

Additional observations from a re-analysis of the deposited data

How the results depend on the processing

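The 46 higher and 6 lower members became 54 and 6 with DESeq2, whose own filter also kept 10 of those higher members that edgeR had not tested; among the 54 members tested with edgeR it called 44 higher and 6 lower, and BGIOSGA035631 and BGIOSGA017198 lost their call. They became 60 and 7 without a filter, of which 13 and 1 were members left out by the filter. The counts were 48 and 6 with RLE size factors, 33 and 4 with at least 10 counts in every library, 39 and 6 with library size only, and 42 to 43 and 6 with limma on FPKM. Of all genes tested, 32.4% were higher and 26.6% lower with DESeq2, and 35% and 30.5% without a filter. These shares were 42.6% and 38% with RLE size factors, and 39.6% and 40.2% with at least 10 counts in every library. They were 37.8% and 44% with library size only, and 40.3% to 40.5% and 39.5% to 39.8% with limma. Leaving out each library in turn gave 43 to 47 higher and 6 lower members, beside 40.6% to 41.6% and 37.3% to 38% of all genes. At an adjusted p of at most 0.001 and at least a 2-fold change, 2 members were lower, 23.6% of all genes were higher and 13.3% lower, and 2 genes of the other sugar lists were lower instead of 11; with at least 10 counts in every library 22 genes of these lists were higher instead of 34, where fewer genes were tested. The summed ratio of 2.13 was 1.94 with library size only, and BGIOSGA017493 turned from 0.11 to -0.03 on the log2 scale. Clusters held 41 members at 20 kb and 51 at 200 kb. Leaving out PHT1-4 left 46 and 6.

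The replicate number as a block gave 46 higher and 6 lower members, 34 and 11 genes of the other lists, and 41.5% and 38.0% of all genes; BGIOSGA017198 lost its call and 1 member gained one. Same-numbered libraries of the stages had deviations that correlated at -0.0283, -0.0129 and -0.0088, so no shared effect of the number was seen. Whether such libraries shared a plant or harvest is not stated. The filter, not the depth alone, set which members were tested, since 13 higher and 1 lower of the untested ones were called without it; the 16 members at 0 in all libraries gave no value at this depth.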
